A study of Mus musculus with 2 samples.

Results

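Dense clusters of EGR1 peaks are stretches of the mouse genome where ChIP-seq in frontal cortex placed 3 or more binding peaks side by side. They were chosen by peak position alone. Peaks on assembled chromosomes were sorted by centre, neighbours with centres at most 2 kb apart were joined into a chain, and chains of 3 or more peaks were kept. This gave 133 chains with 428 peaks, which is 3.59% of the 11938 peaks on assembled chromosomes and part of a list of 12014 peaks in all. A further 1840 peaks lay in 920 pairs, and 9670 peaks had no neighbour within 2 kb. Chromosomes, positions and the IDR of each peak were the only values in the list, so the number and spacing of peaks in a chain describe the choice and were not tested.

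EGR1, also known as Zif268, is a zinc-finger transcription factor of the immediate-early class, whose gene is switched on within minutes of neuronal activity and is widely used as a marker of active neurons. It binds GC-rich DNA, and its core word holds CpG dinucleotides. Its partners NAB1 and NAB2 are corepressors that dampen EGR activity, and NAB2 is itself a known EGR1 target, so that the pathway has a negative feedback loop.

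The study asked where EGR1 sits in the cortex of young adult mice. Frontal cortices came from male mice at 6 weeks of age, F1 hybrids of 129SvEv and C57BL/6N, and each ChIP experiment pooled several animals. Both ChIP experiments were merged by the authors into 1 peak list, and the matching input DNA was not analysed here. The cortex holds neurons and glia together, so the list does not say which cell type a peak came from. With 1 merged list there is no spread between replicates and no depth for a peak. Shares below therefore carry 95% Wilson intervals, which cover counting error over peaks or chains only, and peaks of 1 chain are not independent. The IDR is the irreproducible discovery rate of a peak. It ranks how reproducibly the peak was called in both experiments, with low values for the most reproducible, and is not a measure of binding strength.

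The motif was searched as GCGGGGGCG or GCGTGGGCG on both strands, and 80 of the 428 clustered peaks held it at least once. The chains at Baiap2, an actin regulator of dendritic spines, and Klf10, a zinc-finger gene of the immediate-early class, were the 2 of 133 in which every peak held it. Their motifs are printed here because they show how far apart repeated EGR1 words lie inside a chain. Each is given with 10 bases to either side, 5′ to 3′ on the strand that holds the word, from the RefSeq GRCm38.p6 sequence, which has the positions of mm10, and capitals mark the word.
Baiap2 peak 1 motif, chr11:119942275-119942303, minus strand: gggaattgggGCGGGGGCGggagttgggt
Baiap2 peak 2 motif, chr11:119942733-119942761, minus strand: ggggcggaaaGCGGGGGCGgggtggcgca
Baiap2 peak 2 motif, chr11:119942880-119942908, minus strand: gatttcggagGCGGGGGCGaagggcggag
Baiap2 peak 2 motif, chr11:119942960-119942988, plus strand: gctaggctggGCGGGGGCGgacagccggg
Baiap2 peak 2 motif, chr11:119942997-119943025, plus strand: tccgggcgcgGCGGGGGCGgggcccggag
Baiap2 peak 3 motif, chr11:119943559-119943587, plus strand: ggaacaaggaGCGGGGGCGgcgtggaggt
Klf10 peak 1 motif, chr15:38299303-38299331, minus strand: ccccggccgaGCGGGGGCGggggcccgtg
Klf10 peak 2 motif, chr15:38299958-38299986, plus strand: cccgacgtctGCGGGGGCGccgcggctcc
Klf10 peak 3 motif, chr15:38301379-38301407, minus strand: gccgccttggGCGTGGGCGgtgagtgcga

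The Baiap2 words were all of the GCGGGGGCG form, and 4 of the 6 lay in the middle peak, a 406-bp interval around the Baiap2 TSS. In Klf10 the last word had the GCGTGGGCG form. Whole peaks outside untranslated regions are printed next for 4 chains with different relations to the motif: Nab2, with most peaks, Klf10, with a motif in each, Tet3, with none, and a chain near Tex44 that lies away from any start site. They are written on the plus strand, so that a word on the minus strand appears as CGCCCCCGC or CGCCCACGC, in capitals.
Nab2 peak 3, chr10:127666998-127667112, plus strand: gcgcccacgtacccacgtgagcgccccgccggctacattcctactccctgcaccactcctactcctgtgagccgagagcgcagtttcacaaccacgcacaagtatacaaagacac
Nab2 peak 6, chr10:127668813-127668987, plus strand: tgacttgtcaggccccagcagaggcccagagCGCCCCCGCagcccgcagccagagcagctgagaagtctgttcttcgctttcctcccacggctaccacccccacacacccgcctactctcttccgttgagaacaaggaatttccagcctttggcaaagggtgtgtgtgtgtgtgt
Klf10 peak 2, chr15:38299868-38300008, plus strand: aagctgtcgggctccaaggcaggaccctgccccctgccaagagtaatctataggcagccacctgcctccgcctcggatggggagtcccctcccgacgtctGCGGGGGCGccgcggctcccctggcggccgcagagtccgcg
Klf10 peak 3, chr15:38301326-38301440, plus strand: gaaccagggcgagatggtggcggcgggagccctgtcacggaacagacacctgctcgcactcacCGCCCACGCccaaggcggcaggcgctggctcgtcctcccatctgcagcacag
Tet3 peak 5, chr6:83440882-83441145, plus strand: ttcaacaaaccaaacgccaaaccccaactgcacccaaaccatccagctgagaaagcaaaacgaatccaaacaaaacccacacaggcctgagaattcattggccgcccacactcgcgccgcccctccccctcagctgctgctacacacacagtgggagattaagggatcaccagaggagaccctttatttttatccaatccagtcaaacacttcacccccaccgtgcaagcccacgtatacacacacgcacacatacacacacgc
Chain near Tex44 peak 2, chr1:86442552-86442706, plus strand: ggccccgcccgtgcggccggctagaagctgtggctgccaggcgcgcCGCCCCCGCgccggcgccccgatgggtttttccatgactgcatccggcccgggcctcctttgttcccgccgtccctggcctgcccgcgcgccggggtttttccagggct
Chain near Tex44 peak 3, chr1:86442991-86443240, plus strand: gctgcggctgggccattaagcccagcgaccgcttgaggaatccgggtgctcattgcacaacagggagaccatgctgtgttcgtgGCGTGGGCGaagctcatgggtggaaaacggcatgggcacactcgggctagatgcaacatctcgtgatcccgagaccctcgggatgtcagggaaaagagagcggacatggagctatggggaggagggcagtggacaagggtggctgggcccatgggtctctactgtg

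Peak 3 of Nab2 and peak 5 of Tet3 show clustered peaks without an exact word, while peak 6 of Nab2 holds it. Allowing 1 mismatch, 79.2% of clustered peaks (75.1 to 82.8) held the word, against 82.3% of paired peaks (80.5 to 84) and 67% of single peaks (66.1 to 67.9).

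Nab2 had 1 of the 2 chains with 6 peaks, the most in any chain. The peaks spanned 3331 bp on chromosome 10 (chr10:127665657-127668987) and covered the divergent start sites of Nab2 and Nemp1, a nuclear envelope protein gene. From left to right their IDRs were 5.10e-04, 2.06e-07, 4.31e-07, 5.26e-07, 1.23e-04 and 4.88e-08. Of the 6 peaks, 4 were below 1e-06, and the highest values were at peaks 1 and 5. Peak 2 lay 20 bp downstream of a Nab2 TSS and peak 3 lay 68 bp upstream of a Nemp1 TSS. Peak 6, with the lowest IDR, was the 1 that held an exact motif, 332 bp upstream of another Nab2 TSS. The 5 gaps ranged from 366 to 906 bp between centres.

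Dlgap3, which encodes the postsynaptic scaffold SAPAP3, had the other chain of 6 peaks and the longest span of all, 6842 bp (chr4:127168348-127175189). Its IDRs were 7.07e-04, 2.86e-04, 8.21e-05, 6.68e-06, 0.00106 and 1.81e-06 in order along the gene. The last of these peaks lay 2184 bp downstream of the nearest TSS, in an intron, and peak 4 lay 13 bp upstream of a TSS. None of the 6 peaks held the exact motif, while the sequence between its peaks held 5. Of these, 2 are printed because they show words in the chain and outside its called peaks.
Dlgap3 motif between peaks, chr4:127169024-127169052, plus strand: cggggccgctGCGGGGGCGgggagcgcgg
Dlgap3 motif between peaks, chr4:127169445-127169473, minus strand: ggagccccggGCGTGGGCGgcgccggggc

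Chains of 5 peaks were found at Nat8l, Tet3, Pdgfb and Tnrc18. Tet3, a dioxygenase that oxidises 5-methylcytosine, had 5 peaks over 2473 bp (chr6:83438673-83441145), with IDRs of 6.54e-04, 1.75e-04, 8.54e-04, 9.47e-05 and 1.68e-05. All 5 lay downstream of the nearest Tet3 TSS, at 2831, 2133, 1634, 1038 and 618 bp, so that the IDR was lowest at the peak closest to the TSS. No exact motif was found in them or between them, and the CpG ratio of the span, the observed over the expected number of CpG, was 0.254. At Nat8l, which encodes the enzyme that makes N-acetylaspartate, the IDR fell along the gene from 0.00196 and 0.00948 upstream of the TSS to 6.46e-06, 2.76e-06 and 2.94e-07 downstream of it. The single motif of Nat8l was in the first peak. Pdgfb, a growth factor gene, had its lowest IDR, 8.12e-08, at the outermost peak, which lay 1634 bp from its neighbour and 84 bp upstream of the noncoding gene Gm41361. The other 4 Pdgfb peaks had IDRs of 6.13e-04, 0.00559, 9.24e-05 and 3.62e-04. Tnrc18 had the highest median IDR of these chains, 0.00718, with 4 IDRs from 0.00654 to 0.0180 and the last, 1.73e-05, at the peak 2272 bp upstream of the TSS.

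Among the 15 chains of 4 peaks, those with the lowest median IDR were at Brd2, an unnamed noncoding gene, Cx3cl1 and Sun1. The chain of Brd2, a bromodomain protein gene, reached the start of its neighbour H2-DMa, and its 4 IDRs were 1.77e-07, 6.34e-08, 9.37e-07 and 5.02e-04. Cx3cl1 encodes fractalkine, the neuronal ligand of a microglial receptor. Its IDR rose from 1.93e-08 at the TSS to 1.89e-07, 2.03e-06 and 7.42e-04 along the first 3232 bp of the gene, with no exact motif in the span. Sun1, a nuclear envelope gene, had its lowest IDR, 1.52e-07, at the peak 118 bp upstream of its TSS and 3 further peaks downstream. The chain at the noncoding gene held 2 motif-bearing peaks, and its nearest coding start, that of Cxxc5, was 32961 bp away.

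**Figure D1:**
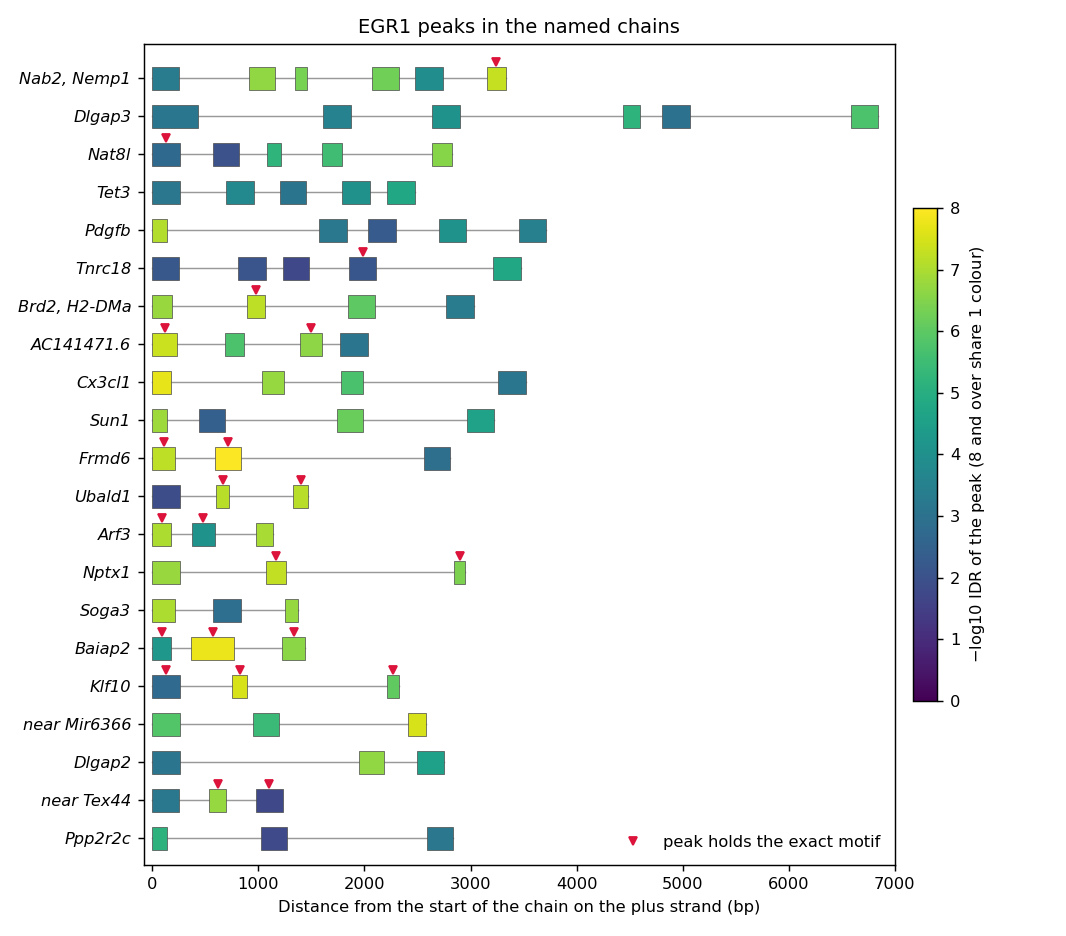
Peaks of 21 named chains as boxes along the distance from the start of the chain on the plus strand (bp), coloured by −log10 IDR, with a triangle over each peak that holds the exact motif. Nab2 and Dlgap3 had 6 peaks each, over 3331 and 6842 bp, and the rows from Frmd6 to Klf10 hold most of the triangles.

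Across all chains, 112 had 3 peaks, 15 had 4, 4 had 5 and 2 had 6. Spans ran from 1038 to 6842 bp with a median of 2074 bp, and peaks covered a median of 36.8% of the span. The 295 gaps between neighbouring centres had quartiles of 507, 730 and 1112 bp, and the sequence between the edges of neighbouring peaks had a median of 499 bp. In the 920 pairs the median gap was 714 bp, close to that in chains. Gaps of 500 to 750 bp were the most frequent class in both groups, at 28.1% in chains and 32.4% in pairs. The joining distance caps these gaps at 2 kb, and no gap in a chain was under 333 bp.

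The tightest chains, by mean spacing, were at Pip4k2b (390 bp), Tub (413 bp), Lyzl4 and Vipr1 (436 bp), Polr2a (446 bp) and the noncoding gene 2410080I02Rik (455 bp). Pip4k2b encodes a phosphoinositide kinase, and its chain had the shortest span. Its IDRs were 0.00213, 2.61e-07 and 1.48e-07. Tub encodes a regulator of cilia and body weight, and its IDRs were 7.03e-04, 0.0159 and 3.31e-08, with a motif in peaks 1 and 3. Polr2a encodes the largest subunit of RNA polymerase II, and its 3 IDRs of 2.30e-05, 0.0101 and 0.00386 were all above 1e-05. The longest spans after Dlgap3 were at Ttc7 (4108 bp), Pdgfb (3711 bp), Smarca2 (3618 bp), an ATPase gene of the BAF chromatin remodelling complex, and Cx3cl1 (3523 bp).

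The choice of 2 kb mattered for chains near that distance. Kept were 7 chains with a longest gap from 1874 bp (Klf13) to 1968 bp (Frmd6), among them Nrxn2 (1893 bp) and Dlgap2 (1936 bp). Just outside, 10 runs of 3 or 4 peaks missed it, starting with Swsap1 (2012 bp), Cbarp with Atp5d (2020 bp) and Adgrb1 (2034 bp) and reaching Crip2 (2145 bp) and Lmo4.

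The lowest median IDRs were at Frmd6, Ubald1, Arf3, Nptx1 and Soga3. Frmd6 encodes a FERM-domain protein of the Hippo pathway, and its 3 peaks had IDRs of 6.37e-08, 1.08e-08 and 0.00132. Ubald1 followed with 0.0138, 7.14e-08 and 6.98e-08, and Arf3, a small GTPase of the Golgi, with 9.80e-08, 8.33e-05 and 1.10e-07. In these 3 chains 2 of 3 peaks held the motif. Nptx1 encodes a neuronal pentraxin that gathers AMPA receptors at synapses. All 3 of its peaks had very low IDRs, 1.70e-07, 5.25e-08 and 3.67e-07, and the last 2 held the motif. Soga3 had 1.00e-07, 0.00142 and 1.88e-07 with no motif.

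Over the whole set the median IDR was 9.46e-05 in clustered peaks, 1.36e-04 in pairs and 3.87e-04 in single peaks. An IDR of 0.001 or less was reached by 68.0% of clustered peaks (63.4 to 72.2), 64.8% of paired peaks (62.6 to 66.9) and 58.1% of single peaks (57.1 to 59.1). Within 1 chain the values still spread widely, and the highest IDR exceeded the lowest by a median of 3.52 on the log10 scale. In 37 chains every peak was at 0.001 or less, and 29 chains had at least 1 peak above 0.01.

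Clustered peaks lay around start sites more often than single peaks. A GENCODE TSS was within 2 kb of the centre in 92.1% of clustered peaks (89.1 to 94.3), 86.9% of paired peaks (85.3 to 88.4) and 58.0% of single peaks (57.0 to 58.9). Within 250 bp the shares were 40.4% (35.9 to 45.1), 50.3% (48.0 to 52.6) and 41.4% (40.4 to 42.3). Here the clustered interval overlapped that of single peaks and lay below that of paired peaks. Spaced peaks cannot all lie at 1 TSS, so the rule itself spreads members outward. The spread was larger downstream: 22.7% of clustered peaks (19 to 26.9) were 500 to 2000 bp downstream of the nearest TSS, against 5.57% of single peaks (5.13 to 6.05). Upstream over the same distances the shares were 13.3% and 3.82%, so single peaks leaned downstream as well. Paired peaks were not counted at these distances.

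**Figure D2:**
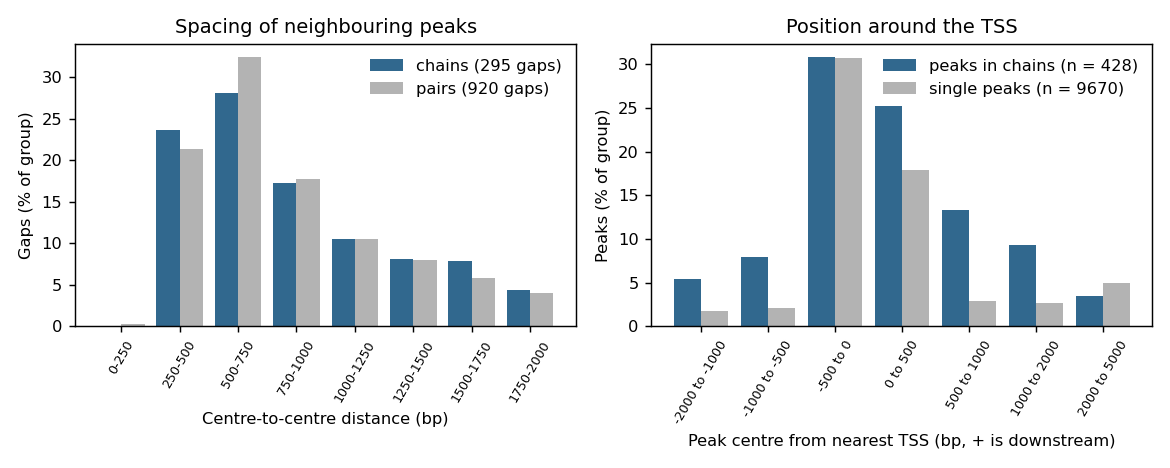
Left, distances between neighbouring peak centres in classes of 250 bp, as the percent of gaps in chains and in pairs. Right, peak centres by distance from the nearest TSS, as the percent of clustered and of single peaks, with classes of unequal width. Both gap distributions are highest at 500 to 750 bp, and clustered peaks exceed single peaks in each class from 500 to 2000 bp on either side of the TSS.

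Of the 133 chains, 126 had a TSS within 2 kb of the span (94.7%, 89.5 to 97.4) and 120 had a TSS of a protein-coding gene there. A single coding gene was reached by 102 chains and 2 coding genes by 18. Divergent coding starts at most 1 kb apart, as at Nab2 and Nemp1, were found in 14. Scored by the nearest TSS of each peak, peaks sat on both sides in 94 of the 126 chains, only downstream in 18, as at Tet3, and only upstream in 14. Peaks of 1 chain can have different nearest start sites. At Klf10 each peak lay upstream of its own, yet 2 start positions fell inside the span. In 53 chains 2 or more peaks lay within 250 bp of a TSS, in 4 chains all peaks did, and in 18 none did. The median chain held 3 distinct annotated start positions, and the highest number was 10.

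No TSS was within 10 kb of 4 chains. The first, on chromosome 16 (chr16:18152159-18154742), began in the 3′ end of Rtn4r, the Nogo receptor gene, and had its nearest annotated start at Mir6366, 10428 bp away. Its IDRs were 1.50e-06, 3.88e-06 and 3.06e-08 with no exact motif, and its median lay below the lower quartile of the median IDRs of all chains, 1.90e-06. Another lay in an intron of Dlgap2, a postsynaptic scaffold gene related to Dlgap3, with IDRs of 8.05e-04, 2.09e-07 and 3.04e-05. Its peaks were the only ones of a chain to share a word of 20 bp, and 1 of them had a centre word of 31 bp found more than once in the genome, which was also so for 1 peak of the chain at Brox and Aida and for no other clustered peak. The chain whose nearest start was Tex44 lay in intergenic sequence 15685 bp away (chr1:86442014-86443240). Its IDRs were 6.23e-04, 1.81e-07 and 0.0178, 2 of 3 peaks held the motif, and its CpG ratio was 0.802, above the median of all spans, 0.714. The last of the 4, in an intron of Ppp2r2c, had the lowest CpG ratio of any span, 0.160, and IDRs of 7.02e-06, 0.0161 and 6.72e-04. A second chain at the start of Ppp2r2c, a phosphatase subunit gene, lay 20915 bp away, and Psd also had a pair of chains, 7067 bp apart.

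No coding start was within 2 kb of 13 chains. Among them were chains at Mir124a-1hg and Mir124a-3, both precursors of miR-124, an abundant microRNA of neurons, and at Dleu2. The median IDRs were 0.00285, 9.72e-04 and 3.65e-07 in that order. These 3 were chosen after their values were seen.

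The exact motif was in 18.7% of clustered peaks (15.3 to 22.7), 23.9% of paired peaks (22 to 25.9) and 15.2% of single peaks (14.5 to 15.9), and in 16.6% of all peaks. Near a TSS clustered peaks held it no more often than single peaks, 18.5% (15.0 to 22.7) against 21.5% (20.4 to 22.6). Paired peaks near a TSS held the motif in 25.8% (23.7 to 28.0), an interval above that of clustered peaks. Over 2 kb from a TSS it was in 7 of 34 clustered peaks, 20.6% (10.3 to 36.8), and in 6.49% of 4065 single peaks (5.78 to 7.29). Paired peaks there stood at 11.2% (7.81 to 15.8), an interval that overlapped that of clustered peaks. Of all RefSeq promoter windows from 250 bp upstream to 50 bp downstream of the start, 3.47% held the word, and of the 173 such windows of genes with a TSS within 2 kb of a clustered peak, 13.3% did (9.02 to 19.2). Those genes were chosen by their peaks, and windows of genes with single or paired peaks were not counted apart. The window shares therefore do not bear on clustering. The share of peaks with the motif was highest at the lowest IDRs in both clustered and single peaks. Among peaks with an IDR of up to 1e-06 it was 35.5% in chains (27.6 to 44.4) and 32.8% in single peaks (30.7 to 34.9), and from 0.0001 to 0.001 it was 9.33% and 10.3%. In the 2 bands above, it was 12.3% (7.31 to 19.9) and 9.68% (3.35 to 24.9) in chains and 8.82% (7.84 to 9.91) and 6.30% (5.04 to 7.85) in single peaks, with overlapping intervals. The share with a TSS within 2 kb, in contrast, was higher in chains in each of the 6 IDR bands, from 95% against 79.1% in the lowest to 87.1% against 43.1% in the highest.

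**Figure D3:**
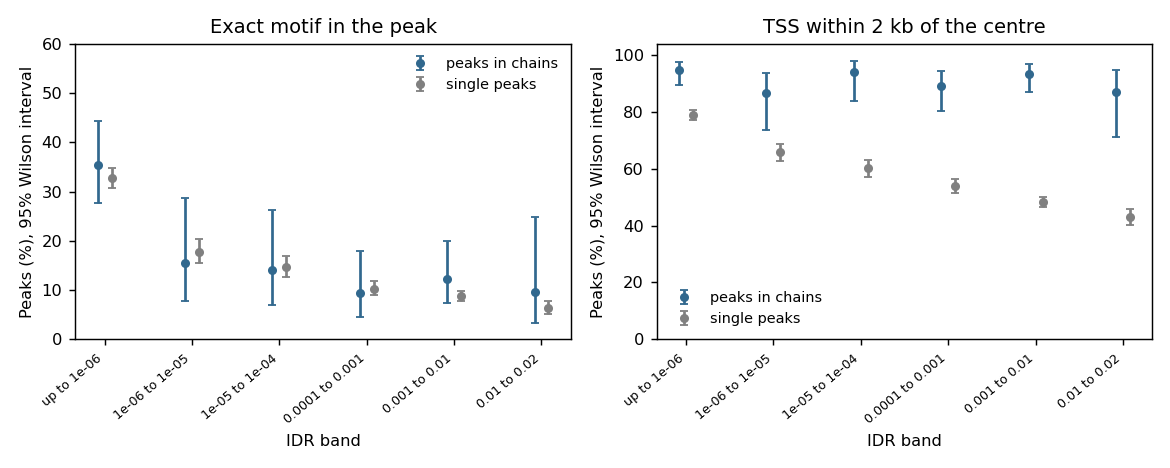
Percent of peaks with the exact motif (left) and with a TSS within 2 kb of the centre (right) in 6 bands of IDR, for peaks in chains and single peaks, with 95% Wilson intervals. The motif shares overlap in every band, and the TSS shares of clustered peaks lie above those of single peaks in every band, for instance 93.4% against 48.3% from 0.001 to 0.01.

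Over all chains, motifs were denser in peaks than in the sequence between them. At least 1 peak held the motif in 56 chains, at least 2 in 22 and every peak in 2, and 66 chains had none in or between peaks. The peak with the lowest IDR of its chain held it in 27.1% of chains (20.2 to 35.2), against 14.9% of the other clustered peaks (11.3 to 19.4). These lowest peaks had a median IDR of 3.60e-07. Single peaks of up to 1e-06 held the motif in 32.8%, so the contrast is not particular to chains. Peaks held 88 motifs in 100587 bp, or 0.875 per kb. The sequence between them held 27 in 184425 bp, or 0.146 per kb, and windows of the same length 5 kb from the chain held 0.0158 per kb, as the mean of both sides. By chain, the density was higher in peaks than between them in 56 and lower in 11, Dlgap3 among the latter. The lowest IDR of a chain had no fixed place. It fell on the peak nearest a TSS in 37 of 105 chains of 3 with a TSS within 2 kb, and on the middle peak in 35 of 112 chains of 3.

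The CpG ratio, in contrast, had the same median in the peaks and in the sequence between them. This CpG ratio over chains was 0.705 in peaks and 0.705 between them, and 0.203 in the windows 5 kb away. It was higher in the peaks in 66 chains and higher between them in 67, while GC content was higher in peaks in 85. With a CpG ratio of at least 0.6 and a GC content of at least 50%, 100 of the 133 spans were CpG-rich. Spans with a low CpG ratio included those in the intron of Ppp2r2c (0.160), near Mir6366 (0.226), at Nrxn2 (0.228), Cx3cl1 (0.247) and Tet3 (0.254) and in Dlgap2 (0.321). By peak, the median was 0.703 in chains, 0.720 in pairs and 0.550 in single peaks. Near a TSS clustered and single peaks had medians of 0.724 and 0.765.

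**Figure D4:**
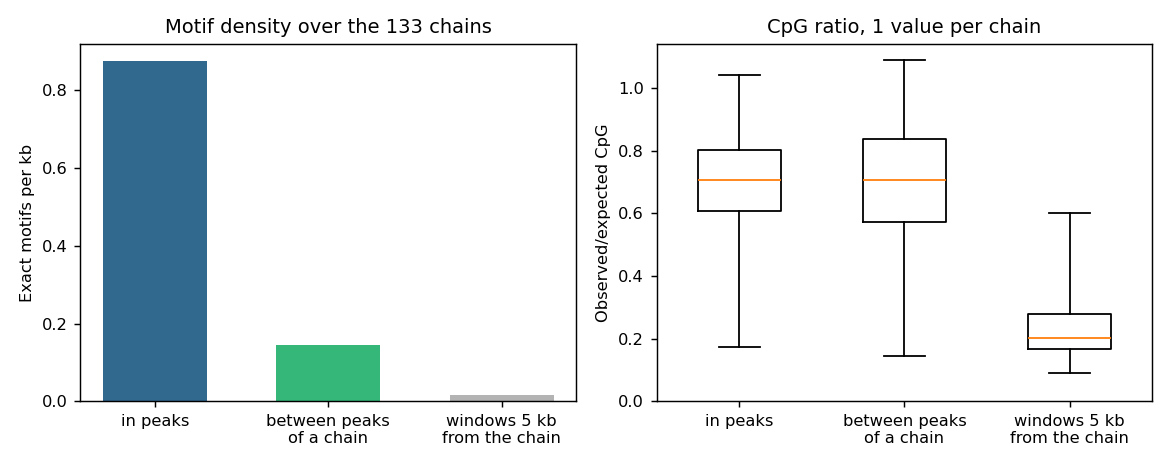
Left, exact motifs per kb in the clustered peaks (0.875), between the peaks of a chain (0.146) and in windows of the same length 5 kb from the chain (0.0158). Right, CpG ratio per chain in the same places, with the median, quartiles and full range, at medians of 0.705, 0.705 and 0.203.

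Words of other factors were counted on both strands in a window of 250 bp around each peak centre. The EGR1 motif was counted within the peak itself, so the shares rest on different stretches of sequence. The SP/KLF word GGGCGGGG, which overlaps the EGR1 word in letters, was in 28.7% of clustered peaks (24.7 to 33.2), 33.6% of paired and 25% of single peaks, and in 26.5% of all. The AP-1 site TGACTCA, bound by FOS and JUN proteins, was in 2.10% of clustered peaks (1.11 to 3.95) and 5.33% of single peaks (4.90 to 5.79), and the neuronal E-box CAGATGG in 6.07% (4.18 to 8.75) and 8.62% (8.08 to 9.20). The cyclic AMP response element TGACGTCA was in 2.57% (1.44 to 4.54) and 1.34% (1.13 to 1.59). The NFY box CCAAT was in 25.7% of clustered and 25.8% of single peaks. The clustered and single intervals did not overlap for AP-1, while those for the E-box and the cyclic AMP element did. Paired peaks held the AP-1 site in 3.21% (2.49 to 4.11), which overlapped the clustered interval. Most clustered peaks lay near a TSS, so the words were also counted within 2 kb of one. There the SP/KLF word was less frequent in clustered peaks, at 29.7% (25.4 to 34.4), than in single peaks, at 36.8% (35.5 to 38.1). Over all peaks the clustered share was the higher, but the single interval, 24.2 to 25.9, overlapped the clustered one. Paired peaks near a TSS held the SP/KLF word in 36.3% (34.0 to 38.7). The ETS box CCGGAAGT, common in promoters, was in 1.52% of clustered (0.7 to 3.28) and 4.60% of single peaks (4.08 to 5.18) near a TSS. Those intervals did not overlap, but that of paired peaks there, 2.88% (2.16 to 3.82), overlapped the clustered one. AP-1 sites were in 2.03% of clustered (1.03 to 3.95) and 3.14% of single peaks (2.71 to 3.63) there, with intervals that overlapped.

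Genes were then counted by list, and no list was tested. A TSS within 2 kb of a clustered peak was found for 137 coding genes, which is 2.11% of the 6488 coding genes with any EGR1 peak that close. Of the 6 EGR and NAB genes with a peak nearby, Egr1 and Nab2 had chains. The IDRs at Egr1 were 6.85e-05 at 629 bp and 0.00603 at 190 bp upstream of the TSS and 2.13e-08 at 518 bp downstream, and the outer peaks held the motif. Of 21 immediate-early factors with a peak, Klf10 and Junb had chains. Klf10 had IDRs of 0.00181, 3.15e-08 and 8.85e-07. At Junb, an AP-1 subunit gene, they were 9.95e-04, 2.31e-07 and 2.59e-06, and the first 2 peaks held the motif.

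Of 18 activity-induced effector genes with a peak, 4 had chains, at Nptx1, Per1, Vgf and Tiparp. The share over all coding genes with a peak was 2.11%, and the difference was not tested. Per1, a light- and activity-induced clock gene, had IDRs of 1.81e-06, 4.89e-07 and 2.28e-08 with no motif. Vgf encodes a secreted neuropeptide precursor, and its 4 peaks had 6.08e-07, 3.36e-05, 0.0148 and 6.70e-07, the first with a motif. Tiparp, a mono-ADP-ribosyltransferase gene, was far less reproducible, with 0.00634, 9.76e-04 and 0.0137. Dusp7 was the 1 of 7 MAP kinase phosphatase genes with a peak that had a chain, beside the same 2.11%, and was not tested either. Its IDRs were 0.0169, 2.45e-05 and 0.01.

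Of 6 TET and demethylation genes with a peak, Tet2 and Tet3 had chains. The share over all coding genes with a peak was 2.11%, and a list this short was not tested against it. Tet2 had IDRs of 0.001, 5.10e-07 and 2.80e-07 around its TSS. Tet2 had no motif in its peaks and 2 between them, and its CpG ratio of 0.779 was that of a CpG-rich span, unlike 0.254 at Tet3. Of 6 DNA methyltransferase and reader genes with a peak, none had a chain.

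Chains were found at 14.3% of the glutamate receptor genes with a peak, 14.3% of the postsynaptic density genes and 4.35% of the vesicle and active zone genes, beside 2.11% of all coding genes. Each of these shares rests on 1 or 2 genes, and no list was tested. Of 14 glutamate receptor genes with a peak, Grin2a, an NMDA receptor subunit, had IDRs of 7.62e-07, 5.65e-07 and 1.08e-04, and Grm4, a presynaptic metabotropic receptor, 6.61e-08, 0.0150 and 1.59e-05. Of 14 postsynaptic density genes, Dlgap3 and Camk2b, a subunit of the kinase of synaptic plasticity, had chains, and of 23 vesicle and active zone genes, Unc13a, a vesicle priming factor. The median IDR was 2.01e-04 at Camk2b and 4.69e-07 at Unc13a. None of 44 potassium channel genes, 19 sodium and calcium channel genes or 7 GABA-A receptor genes with a peak had one.

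Among 13 layer and projection neuron factors with a peak, the chains found included those at Neurod1 and Neurod2, helix-loop-helix factors of excitatory neurons. The share over all coding genes with a peak was 2.11%. At Neurod2 the IDRs were 0.00133, 6.05e-06 and 4.79e-08, and at Neurod1 0.00216, 2.73e-04 and 4.76e-07, with 2 motif-bearing peaks in each. Of other cell types, the 5 astrocyte genes with a peak gave 1 chain, at Glul (median IDR 0.00113), and the 8 interneuron, 3 oligodendrocyte and 1 microglia genes gave none. These lists are short and none was tested, so the counts do not set cell types apart.

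Axon guidance gave 3 of 38, Efna3, Unc5a and Sema6b, with median IDRs of 1.18e-04, 5.60e-04 and 0.00145. Histone methylases and demethylases gave 2 of 23, Kmt2e (1.48e-04) and Kmt5b (6.20e-04). MAP kinase cascade genes gave 1 of 28, Map3k11 (0.0144), and circadian clock genes 1 of 12, which was Per1. Housekeeping lists stood at 0, with none of 32 ribosomal protein and none of 17 proteasome genes that had a peak. The other lists also gave no chain, with CREB, SRF and MEF2 regulators (11 genes with a peak), histone deacetylases (5), neurotrophins and receptors (5), HOX genes (1), clustered protocadherins (3), WNT and Frizzled genes (11), RAB genes (26) and kinesins (16). No list was tested, and in none of them did enough genes have a peak for a count of 0 to stand apart from the background of 2.11%.

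The number of chains differed between chromosomes, which was not tested. Chromosome 5 had 17 chains and 58 clustered peaks, 13.6% of the clustered peaks and 6.85% of all peaks. On chromosome 19, 9.59% of peaks were clustered, on chromosome 11 it was 4.23% and on chromosome 2, with 960 peaks, 1.25%. The X chromosome had 164 peaks and no chain, against 3.59% of peaks clustered over the genome. Whether the X chromosome differs from that share was not tested, and peaks of 1 chain are not independent.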

How the data were processed

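EGR1 ChIP-seq was made by the authors from frontal cortices of male mice, with 2 ChIP experiments. Reads were trimmed and mapped to mm10, peaks were called per replicate with SPP, and the replicates were compared by the IDR framework with a threshold of 2%. The methods name Bowtie, and the submitters' processing notes list Bowtie2 2.2.9 and bedtools 2.26.0. The deposited file gives chromosome, start, end and an IDR, read as a q-value, for each merged peak, with no counts or signal. Depth is therefore unknown.

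Starts were taken as 0-based and are printed 1-based. The 76 peaks on scaffolds were left out, and 1 gene of the lists and some sequence windows are not reported here. Centres at most 2000 bp apart were joined, and chains of 3 or more peaks were kept. TSSs came from GENCODE M21 and sequence from RefSeq GRCm38.p6. A promoter window ran from 250 bp upstream to 50 bp downstream. Chain names follow coding starts within 2 kb, else other starts, the gene body or the nearest TSS. No significance test was made, since no replicate values are given, and 95% intervals are Wilson intervals.

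The members, the 31 gene lists and the alternatives were chosen with earlier results of these data known. Chains named were the 10 with most peaks, the 5 each with the lowest median IDR, shortest mean spacing, longest span and most motif-bearing peaks, up to 5 with no TSS within 10 kb, and up to 3 genes per list, or all in the 4 lists of EGR, immediate-early, activity-induced and MAP kinase phosphatase genes. Python 3.11.15 ran the scripts, with pandas 2.3.3 for tables, numba 0.67.0 for word counts and matplotlib 3.10.9 for plots. The chain rule, motif search, word counts and intervals were checked on simulated data.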

Additional observations from a re-analysis of the deposited data

Results flagged for a closer look

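The scaffolds were outside the comparison above but held chains of their own. Of 76 EGR1 peaks on scaffolds, 68 lay in 5 chains, all on the unplaced scaffold JH584304, and the largest chain joined 30 peaks, against 6 at most on the assembled chromosomes. The median IDR of all scaffold peaks was 7.36e-05. The list gives no control level for these peaks, and their sequence was not analysed here.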

How the results depend on the processing

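No replicate could be left out, because the list holds merged peaks, and no paired analysis was possible because the result comes from no test. The 133 chains became 66 with a joining distance of 1 kb, 21 with at least 4 peaks and 32 among the 50% of peaks with the lowest IDR, and between 106 and 179 in the other settings. All 133 kept 3 or more joined peaks at 3 kb, at 2 kb between edges and with scaffolds, as did 106 with peaks of an IDR of 0.01 or less and 131 with peaks whose middle word occurs once. The share of peaks in chains, 3.59%, moved to 1.75% (1 kb), 4.87% (3 kb), 4.07% (edges), 0.771% (4 peaks), 3.25% (IDR of 0.01), 1.66% (lowest 50%) and 4.13% (scaffolds). The median spacing of 730 bp moved to 570.5 bp (1 kb), 870 bp (3 kb) and 889.5 bp (lowest 50%), and the median IDR to 9.64e-07 (lowest 50%, by construction). The motif share of 18.7% moved to 79.2% with 1 mismatch and ranged from 16.3% to 22.2% otherwise. The share of chains with a TSS within 2 kb, 94.7%, moved to 98.5% (1 kb) and 100% (4 peaks). The median CpG ratio of 0.703 moved to 0.746 (1 kb), 0.573 (4 peaks) and 0.656 (lowest 50%). A repeated middle word, in 0.467% of clustered peaks, was in 0 of them at 1 kb, with 4 peaks and, by construction, with words that occur once. The causes of the other shifts were not tested. Depth per peak is unknown, so that peaks missed in a chain cannot be counted.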
